A study of Monodelphis domestica with 9 samples.

Results

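The comparison of condition q3 against condition q1 in the deposited table was described here across all transcripts whose values were listed in full. The RNA came from tissue at the connection of Meckel's cartilage (MC) and the malleus of the opossum Monodelphis domestica, a marsupial in which these elements are still joined for some weeks after birth. It was captured by laser, with little of the surrounding perichondrium, from 3 pups at each of the postnatal days 16, 18 and 20 (P16, P18 and P20), with no treatment and no mutant. The table codes the conditions as q3, q2 and q1 and does not pair these codes with the stages, so the codes are used as they stand. Its values are condition means in FPKM, fragment counts scaled by transcript length and by the mapped fragments of a library, which allow levels to be compared between genes because they are set per length. No value of a single pup is in the table, so there is no error beside a mean, no sequencing depth and no test, and every statement below describes these means.

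Each row is a TSS group, which pools those transcripts of a gene that begin at the same start site. Members were all rows of q3 against q1 with identifiers up to TSS5013 in text order and with status OK, the mark the table gives to rows that had enough reads for a test. Of the 37421 TSS groups in the table, 28026 (74.9%) lay in this range and 13485 of these had status OK. Both values were above 0 in 13424, which are the members described here. For each, the log2 ratio of q3 to q1 was computed and set against the median of all members with a mean FPKM of at least 1, called the shift below. Genes were picked for description because they lay furthest from this shift, so their distance from it is a description and not a result.

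MC is a rod of hyaline cartilage that holds the first lower jaw of the embryo, and its hind end forms the malleus. Its cells, the chondrocytes, make collagens II, IX and XI, aggrecan, matrilins and link protein, under the control of SOX9, SOX5 and SOX6. Where cartilage is replaced, chondrocytes enlarge and make collagen X, osteoblasts lay down collagen I and mineral-binding proteins, and clasts dissolve mineral with acid and digest matrix with cathepsin K and MMP9. The study captured this tissue to find genes whose expression differed around the time that MC and the malleus separate.

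Nearly all members had more FPKM in q3 than in q1. The q3 value was the higher in 91.4% of the 11959 rows whose mean FPKM reached 1, and the lower in 1024 (8.56%). The median log2 ratio was 2.10, a 4.30-fold difference. The middle part of the ratios, between the lower and upper quartiles, ran from 1.30 to 2.85. With FPKM summed per gene the median was 2.001 over 8713 genes whose TSS groups all lay in the range. The summed FPKM of all 13485 rows was 807808 in q3 and 444343 in q2, against 119175 in q1. Fewer cells of a type and less RNA per cell cannot be told apart in such tissue samples, nor can either be told apart from the scaling between libraries, which the sources used here do not give. By chromosome, the median distance from the shift was between -0.16 on chromosome 7 and 0.06 on chromosome 1 over the 7 chromosomes in the range, so the shift had much the same size on each.

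**Figure D1:**
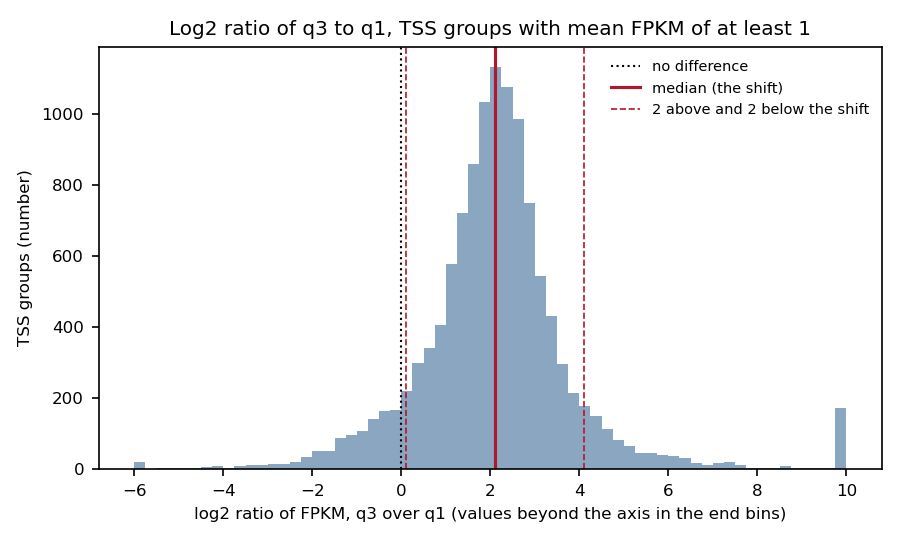
Histogram of the log2 ratio of FPKM in q3 over q1 for the 11959 TSS groups whose mean FPKM reached 1. The bulk of the distribution lies to the right of 0, around the median of 2.10, and the dashed lines mark ratios 2 above and 2 below it.

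Setting each ratio against the shift left 988 TSS groups (8.26%) 2 or more above it and 1110 (9.28%) 2 or more below it on the log2 scale. With centring on the ratio of summed FPKM in place of the median, the counts were 620 above and 1904 below. Without the 2 most abundant TSS groups in the sums, a variant chosen after seeing the data, they were 812 above and 1370 below. These percentages are the background for all counts of TSS groups below. The rows on the low side were mostly weakly expressed. Of rows with a mean FPKM from 1 to 2, 24.1% lay 2 or more below the shift, against 0.971% of those from 10 to 100 and 0 of the 341 at 100 or more. Above the shift the same shares were 9.46%, 4.43% and 5.57%. The mean is set largely by q3, so a filter on it keeps few rows that are low in q3. The median distance from the shift was -0.75 at a mean FPKM of 1 to 2 and 0.36 at 10 to 100. Rows with a higher mean thus stood somewhat higher relative to the shift. The mean and the ratio both contain q3, so such a trend can arise by construction, and nothing is read from it about abundance. At a mean FPKM of at least 10, 124 of 2709 rows (4.58%) lay 2 or more above the shift and 23 (0.849%) lay 2 or more below it.

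**Figure D2:**
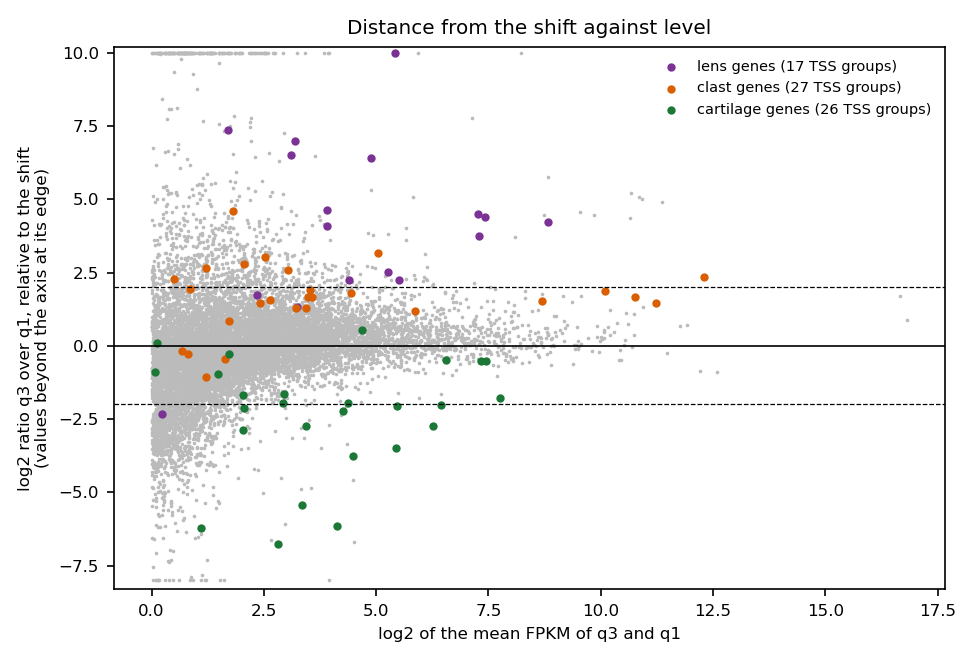
Distance from the shift, as log2 ratio of q3 over q1 minus its median, against the log2 mean FPKM of q3 and q1, for 11959 TSS groups (grey). Of all plotted rows of the lens list (purple) 16 of 17 lie above 0, of the clast list (orange) 23 of 27. Of the cartilage list (green) it is 2 of 26, and the cloud narrows towards high FPKM. The shift is the median of all plotted rows, so as many of them lie above 0 as below it. The lens list was written after the values were seen. Rows near 0 in q1 are plotted only through their q3 value, so the lens count is a description and not a result.

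The genes furthest above the shift were genes of the eye lens. The lens is built of fibre cells filled with crystallins, the soluble proteins that make it refract light, and held in shape by the beaded filaments of BFSP1. No lens tissue is named in the labels of these samples. Among 2033 genes with a symbol and a mean FPKM of at least 10, summed per gene, the 4 furthest above the shift were BFSP1, CRYGS, CRYBA1 and CRYBA4. CRYBA4, a beta crystallin, had an FPKM of 901 in q3 and 2.87 in q2, against 11.1 in q1, which is 4.34 above the shift. CRYBA1, another beta crystallin, had 646 in q3 and was listed at 0 in q2, against 6.95 in q1. For CRYBB1 the values were 308 in q3 and 0.684 in q2, against 6.92 in q1. All 3 were thus abundant in q3, low in q1 and lower still in q2. CRYGS, the gamma S crystallin, had 59.0 in q3 and 0.0884 in q2, against 0.161 in q1. BFSP1 had 115 in q3 and 0.0118 in q2, against 0.275 in q1.

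In these 5 genes the level in q2 was below that in q1. Of the 48 genes of this kind 2 or more above the shift, 7 had less FPKM in q2 than in q1, and 6 of the 7 were the lens genes BFSP1, CRYGS, CRYBA1, CRYBA4, CRYBB1 and CRYBB2. Among all 2033, 7.92% had less in q2 than in q1. CRYAB, the small heat shock protein alpha B crystallin, which tissues other than lens also make, stood 2.47 above the shift but had its q2 level between the others, with 160 in q3 and 16.6 in q2, against 7.24 in q1. GRIFIN, a lens galectin, had 18.4 in q3 and 0.142 in q2, against 0.0336 in q1. The seventh gene with less in q2 was C2orf80, with 55.5 in q3 and 0.189 in q2, against 0.893 in q1. A list of 20 lens fibre genes was written after these values were seen, and 15 of its members are listed in full. Of these, 12 had an FPKM of at least 1 in q3 and 2 in q2, against 7 in q1. Their summed FPKM was 2352 in q3 and 20.6 in q2, against 39.3 in q1. Of the 11 with a ratio, 10 lay above the shift and 9 of these by 2 or more. As the list was written with these values known, its counts are a description and not a result. The exception was GJA3, a lens connexin, with 1.08 in q3, against 1.33 in q1. Of all 8713 genes with a mean FPKM of at least 1, 50% lay above the shift and 340 genes lay 2 or more above it. Of all 13485 rows, 1039 had an FPKM below 1 in q3, against 4824 in q1. LIM2, a membrane protein of lens fibres, had 22.1 in q3 and was listed at 0 in both q2 and q1. DNASE2B, the nuclease that clears DNA from lens fibres, was listed at 0 in q3, against 0.296 in q1.

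**Figure D3:**
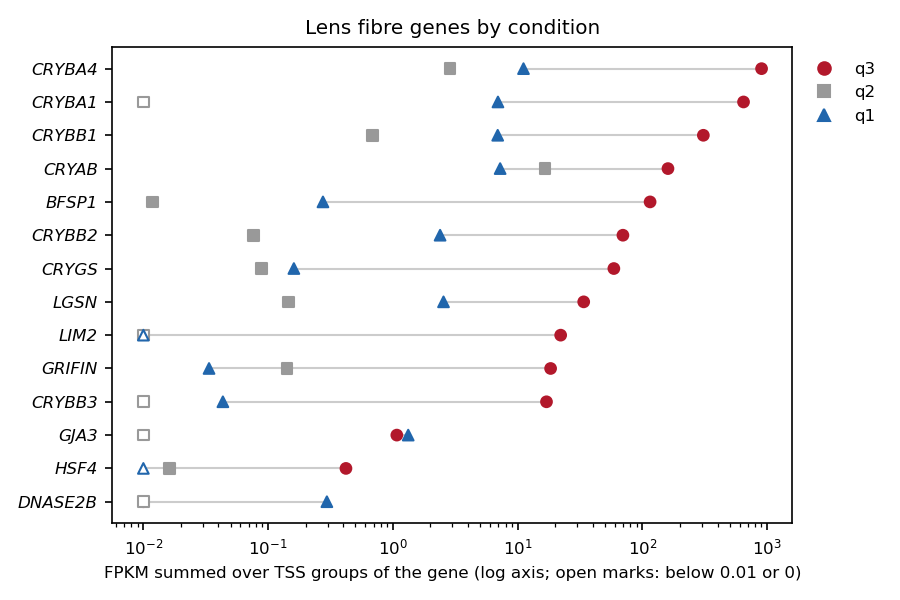
FPKM summed per gene, on a log axis, of 14 lens fibre genes that are listed in full, in q3 (red circles), q2 (grey squares) and q1 (blue triangles), with lines joining q3 and q1 and open marks for values below 0.01. The q3 marks of the crystallins stand apart to the right, from 901 for CRYBA4 to 17.0 for CRYBB3, while GJA3 has its q3 and q1 marks side by side at 1.08 and 1.33. The q3 mark of DNASE2B, at 0, lies under the open mark of q2.

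Of 6 retina genes, also listed after the values were seen, the summed FPKM was 0.624 in q3 and 1.04 in q2, against 1.90 in q1, and CRX and GNAT1 were listed at 0 throughout. PDE6B, a phosphodiesterase of rods, was higher in q3, with 0.449 in q3 and 0.0238 in q2, against 0.200 in q1. Of 5 epidermis genes only KRT14 and CDH1 were listed in full, and they had 0.0835 and 0.0657 in q3, against 0.109 and 0.251 in q1. Of these retina and epidermis genes only RCVRN, with 1.18 in q1, reached an FPKM of 1 in any condition. The others had no row with status OK, so they lie outside the members defined above. Whether lens RNA had any part in other values of q3 was not tested.

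C2orf80 lies in a stretch of chromosome 7 from 186735407 to 186844731, by the coordinates of the table, whose genome build the sources used here do not give. In this stretch the table lists 10 further TSS groups of 8 genes that have only an Ensembl ID, and they are left unnamed here. Of these rows 9 lay 2 or more above the shift, at up to 7.77. In 7 of them FPKM was 903 to 5228 in q3 and at most 3.17 in q2, against 3.84 to 40.3 in q1. Together the 10 rows held 22135 FPKM in q3 and 11.6 in q2, against 173 in q1. In those 7 rows, as in CRYBA1, CRYBA4 and CRYBB1, q3 was far above q1 and q2 was below it.

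Beside the lens genes, genes far above the shift had a range of roles. SLC30A1, a zinc exporter of the plasma membrane, had an FPKM of 20.5 in q3 and 2.91 in q2, against 0.375 in q1. CDK7, the kinase of transcription factor TFIIH that also activates other cyclin-dependent kinases, had 20.2 in q3 and 2.53 in q2, against 0.394 in q1. PHLDA3, an inhibitor of Akt that p53 switches on, had 100 in q3 and 19.7 in q2, against 3.10 in q1. These stood 3.77, 3.68 and 3.01 above the shift. ATP6V0D2, the subunit of the proton pump that clasts use, followed at 2.74, with 89.8 in q3 and 21.6 in q2, against 3.36 in q1. PTPRN, a protein of secretory granules, stood at 2.99, and LAT, an adaptor of the T cell receptor, at 2.57. NUPR1, a stress-induced chromatin protein, stood at 2.54, with 103 in q3 and 79.1 in q2, against 4.43 in q1, so its level in q2 was close to that in q3. SMPD1, the acid sphingomyelinase of lysosomes, had 252 in q3 and 46.0 in q2, against 12.9 in q1. COL10A1 stood at 2.11 and SPI1, the factor PU.1 of myeloid cells, at 2.10.

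Ratios of single TSS groups were larger still, but several rested on a row estimated near 0 in q1. The 15 rows furthest above the shift with a symbol and a mean FPKM of at least 10 included those of SERPINF1, BFSP1, PHLDA3, ATP5G1, COX4I1, CRYGS, EPDR1, CRYBA1, EXT1, XPR1, CRYBA4, CYC1, LAPTM5 and CRYBB2. In 13 of these the FPKM in q1 was below 1, and in 4 it was below 0.001. For SERPINF1, which encodes the secreted antiangiogenic factor PEDF, the row TSS127572 had 122 in q3 and 21.5 in q2 and nearly 0 in q1. Summed over its 4 rows SERPINF1 had 1171 in q3 and 391 in q2, against 185 in q1, only 0.66 above the shift. COX4I1, a subunit of cytochrome c oxidase, had 30.6 in q3 and 29.8 in q2, against 0.00504 in q1 in TSS4190. Its sum over 4 rows was 645 in q3 and 258 in q2, against 106 in q1, or 0.61 above the shift. For EPDR1, a secreted ependymin-like protein, ATP5G1, a subunit of ATP synthase, and CYC1, cytochrome c1, the sums lay 0.69, 0.78 and 0.93 above it. Per gene, 6 of the 15 kept a distance of 2 or more, namely the crystallins, BFSP1 and PHLDA3. XPR1, a phosphate exporter, was just under it at 1.93, and LAPTM5, a lysosomal protein of blood cells, and EXT1, a heparan sulfate polymerase, were at 1.25 and 1.52. In all, 247 members had an FPKM below 0.001 in q1 and 26 in q3, and 155 of the 988 rows 2 or more above the shift had such a value in q1. Of 2589 genes with several rows at a mean FPKM of at least 1, 49.6% had rows on both sides of the shift.

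At a mean FPKM of 100 or more, the rows furthest above the shift included those of 3 crystallins and of genes of resorption and bone. After CRYBA1, CRYBA4 and CRYBB1 came CTSK (cathepsin K, the collagen protease of clasts), with 9600 in q3 and 2054 in q2, against 438 in q1 in its row TSS130799, 2.35 above the shift. IBSP, the bone sialoprotein that binds mineral, had 375 in q3 and 85.3 in q2, against 22.7 in q1 in TSS374248 and stood at 1.95. TIMP4, an inhibitor of metalloproteinases, GRN, the lysosomal growth factor progranulin, MMP9 and ACTG1, a cytoplasmic actin, followed at 1.88, 1.86, 1.86 and 1.76. MMP9 had 2048 in q3 and 236 in q2, against 132 in q1 in TSS2749. Unlike CRYBA1, CRYBA4 and CRYBB1, each of CTSK, IBSP, TIMP4, GRN, MMP9 and ACTG1 had a level in q2 between those of q3 and q1. At a mean FPKM of at least 10, PTGDS lay just inside the limit of 2 above the shift at 2.001, and the rows just outside it were TOE1 and SUMF1 at 1.97 each. On the low side they were COL9A2 at -2.005 and C1orf123 at -2.02 inside the limit, and SERPINH1 and HAPLN1 at -1.95 each outside it.

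A single row held much of all FPKM. TSS129873 of TBC1D22B, a GTPase-activating protein for RAB GTPases, had 204341 in q3 and 178402 in q2, against 25823 in q1. It was 25.3% of the FPKM of all 13485 rows in q3 and 40.1% in q2, against 21.7% in q1, and lay 0.88 above the shift. The other rows of TBC1D22B had an FPKM of at most 4.30 in q3, so this value stands for a single row and not for the gene as a whole.

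Below the shift stood genes of cartilage. Of 2033 genes with a symbol and a mean FPKM of at least 10, 9 had less FPKM in q3 than in q1, and these were FABP7, MATN1, SNORA48, CYTL1, FGFBP2, COL9A1, LECT1, SNORA13 and HAPLN1. Since the median over genes is 2.001, any gene with less in q3 than in q1 lies more than 2 below it by construction. All 9 were also lower in q2 than in q1, but that comparison uses the same q1 values that chose the genes, so nothing is read from it. MATN1, or matrilin 1, a protein of cartilage matrix that links collagen and proteoglycan, had 1.995 in q3 and 3.89 in q2, against 33.6 in q1, a 16.8-fold lower level in q3. FABP7, a fatty acid binding protein best known from glia, had 2.69 in q3 and 7.39 in q2, against 45.7 in q1. They lay at -6.08 and -6.09 relative to the shift. CYTL1, a small secreted protein of chondrocytes, had 9.02 in q3 and 6.18 in q2, against 26.8 in q1. FGFBP2, a secreted protein related to a carrier of FGF, had 32.0 in q3 and 6.57 in q2, against 84.4 in q1. In these, unlike in MATN1 and FABP7, the lowest level was that of q2.

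Several of the other genes on this side build the matrix. COL9A1, a chain of collagen IX, which coats the collagen II fibril, had an FPKM of 61.7 in q3 and 33.4 in q2, against 112 in q1, at -2.86 relative to the shift. COL9A2, another of its chains, had 373 in q3 and 120 in q2, against 363 in q1, at -1.96, so its level in q3 was close to that in q1. LECT1, or chondromodulin, which keeps vessels out of cartilage, had 60.7 in q3 and 28.4 in q2, against 80.5 in q1. HAPLN1, the link protein of aggrecan and hyaluronan, differed little, with 33.5 in q3 and 14.3 in q2, against 33.6 in q1. All 4 had their lowest value in q2. SCRG1, a gene known for its expression in differentiating chondrocytes, was listed at 0 in q3 in both of its rows and had a sum of 0.403 in q2, against 15.4 in q1. It was chosen after its values were seen.

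**Figure D4:**
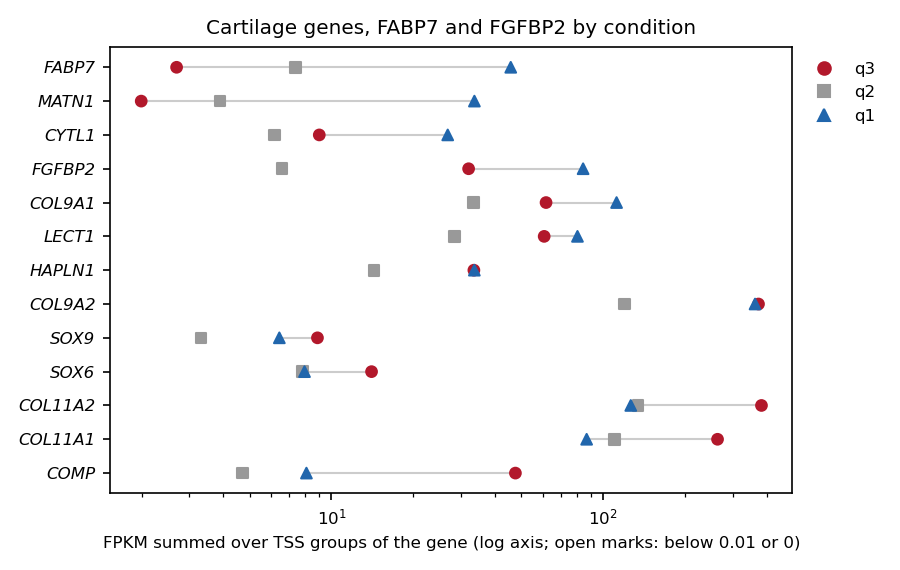
FPKM summed per gene, on a log axis, of 11 cartilage genes with FABP7 and FGFBP2, in q3 (red circles), q2 (grey squares) and q1 (blue triangles), ordered by distance from the shift. In FABP7 and MATN1 q3 is the lowest, at 2.69 and 1.995, while in COL11A2, COL11A1 and COMP, among others, it is the highest.

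By single rows, the 15 furthest below the shift at a mean FPKM of at least 10 were those of 5S_rRNA, FABP7, MATN1, COL9A1, U1, SNORA48, U6, LECT1, FGFBP2, COL9A2, CYTL1, TPM4, C2orf40, WWP2 and SNORA63. Of these, 14 had less FPKM in q3 than in q1, and SNORA63 had 20.3 in q3, against 19.8 in q1. WWP2, a ubiquitin ligase whose gene carries a microRNA of cartilage in mouse and human, had 17.0 in q3, against 20.3 in q1 in TSS4280, and its 6 rows summed to 167 in q3 and 70.8 in q2, against 99.4 in q1, at -1.25. C2orf40, a secreted peptide precursor, summed to 19.3 in q3, against 17.6 in q1, at -1.86. For TPM4, a tropomyosin, the row TSS210257 had 12.2 in q3, against 18.5 in q1, while its sum was 171 in q3, against 48.8 in q1, at -0.19. Several of these rows were short structural RNAs. Names such as U6 and 5S_rRNA are carried by many near-identical copies, 43 and 19 rows with status OK, so reads could be split between them and each row is uncertain. Of 136 rows of such small RNAs with a mean FPKM of at least 1, 40 (29.4%) lay 2 or more below the shift and 8 (5.88%) 2 or more above it. The table lists 40 rows at 0 in q1 and 21 at 0 in q3, and the most abundant of these with a symbol were small RNAs, SNORA75 with 52.8 in q3 and SCARNA23 with 13.5 in q1. No fold is given for such rows.

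Among rows with a mean FPKM of 100 or more, none lay 2 below the shift. The furthest below was TSS302300 of COL9A2, with 241 in q3 and 78.9 in q2, against 191 in q1, at -1.77. It was followed by MRPL33 and MRPL36, proteins of the large subunit of the mitochondrial ribosome, at -0.99 and -0.83, HDLBP, an RNA-binding protein, at -0.69 and a row of COL1A1 at -0.65. That row of COL1A1, TSS129080, had 696 in q3, against 255 in q1, while the gene summed to 3422 in q3, against 633 in q1, at 0.43. RPS15A, C14orf2, AP2S1, S100A1, a calcium-binding protein of muscle and cartilage, and COL11A2 lay at -0.62 to -0.52. All 10 rows thus had more FPKM in q3 than in q1, by less than the shift.

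Among lists of genes, those of clasts and bone lay mostly above the shift and that of cartilage matrix and chondrocytes mostly below it. These lists hold genes already picked above for their distance, among them CTSK, MMP9, IBSP, MATN1 and COL9A1. They therefore give no separate support for this division. The 26 lists were chosen with earlier results of these data known. Over all 8713 genes, 50% lay above the shift, 14% lay 1 or more above it and 19.4% lay 1 or more below it. A gene counts as measured where all its rows were listed and its mean FPKM reached 1. A gene near 0 in q1 can reach this mean through q3 alone. Its large distance above the shift then rests on a value near 0. Among the genes named below this applies to OCSTAMP, GSC, WNT11 and MYL4 at least, with 0.155, 0.0705, 0.018 and 0.0433 in q1. Of 21 clast genes 15 were measured, and 13 of these lay above the shift, 11 by 1 or more, with a median of 1.58 that went to 0.83 with centring on summed FPKM. OCSTAMP, needed for clasts to fuse, had 8.44 in q3, against 0.155 in q1, and lay furthest above at 3.77. DCSTAMP, its partner in fusion, had 24.1 in q3, against 1.996 in q1. The most abundant were CTSK, ACP5 (the phosphatase TRAP) and MMP9, with 12823, 4403 and 2813 in q3, against 671, 368 and 194 in q1. The chloride channel CLCN7 had 14.7 in q3, against 2.41 in q1, at 0.61. PLEKHM1, which guides lysosomes to the membrane of the clast, was furthest below at -0.73. All 12 genes of osteoblasts and bone matrix lay above the shift, 6 by 1 or more, with a median of 1.002. That median went to 0.25 with centring on summed FPKM. With centring by level, that is within 20 bins of mean FPKM, it went to 0.69. IBSP was at 1.86 with 1793 in q3, against 123 in q1. BGLAP, or osteocalcin, had 3980 in q3, against 441 in q1, and COL1A1 is given above. PDPN, a membrane protein of young osteocytes, was nearest to the shift at 0.28. Of 9 genes of hypertrophic cartilage, 8 lay above the shift with a median of 0.39, which went to -0.36 with centring on summed FPKM. COL10A1 was furthest above, and PTH1R, the receptor that holds back enlargement, and MMP13, a collagenase, had 591 and 217 in q3, against 84.3 and 44.7 in q1. SLC20A1, a phosphate importer of mineralizing cells, had 58.0 in q3, against 5.77 in q1, and VEGFA, the growth factor that draws vessels into cartilage, had 7.67 in q3, against 2.11 in q1.

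Of 26 cartilage matrix and chondrocyte genes 11 were measured, of which 1 lay above the shift and 8 lay 1 or more below it, with a median of -1.96. The gene above was COMP, a protein of cartilage and tendon matrix, with 47.6 in q3 and 4.70 in q2, against 8.09 in q1. COL11A1 and COL11A2, chains of the collagen in the core of the cartilage fibril, were both at -0.40, with 264 and 383 in q3, against 87.0 and 126 in q1. The factors SOX9 and SOX6 were at -1.54 and -1.18. COL2A1 and ACAN, the defining genes of cartilage, are not listed in full for q3, so the tissue was checked with COL9A1, COL11A2, MATN1 and SOX9. All of these were present in q1, at 112, 126, 33.6 and 6.43, and MATN1 alone was near 2 in q3. Of the 12 genes of perichondrium and fibroblast matrix, 9 lay above the shift with none at 1 or more. Their median of 0.16 went to -0.59 with centring on summed FPKM and to -0.17 with centring by level. COL3A1 and FN1, fibrillar collagen III and fibronectin, had 1103 and 374 in q3, against 217 and 59.0 in q1. COL5A2, a chain of collagen V, was furthest above at 0.97, and ELN, or elastin, was furthest below at -1.35. Of 13 genes that fold and crosslink collagen, 10 lay above with a median of 0.14, which went to -0.62 with centring on summed FPKM and to -0.12 with centring by level. PCOLCE, which helps to cut procollagen, was furthest above at 0.82, LOX and FKBP10 lay at 0.81 and 0.71, and SERPINH1, the collagen chaperone, was furthest below at -1.21. Of 13 matrix proteases and inhibitors 9 lay above, 4 by 1 or more. Their median of 0.55 went to -0.21 with centring on summed FPKM. MMP2 and MMP14, a gelatinase and its membrane-bound activator, had 127 and 57.2 in q3, against 20.2 and 13.1 in q1. ADAMTS1, a protease of proteoglycans, was furthest above at 2.20, and RECK, an inhibitor of metalloproteinases, furthest below at -1.09.

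**Figure D5:**
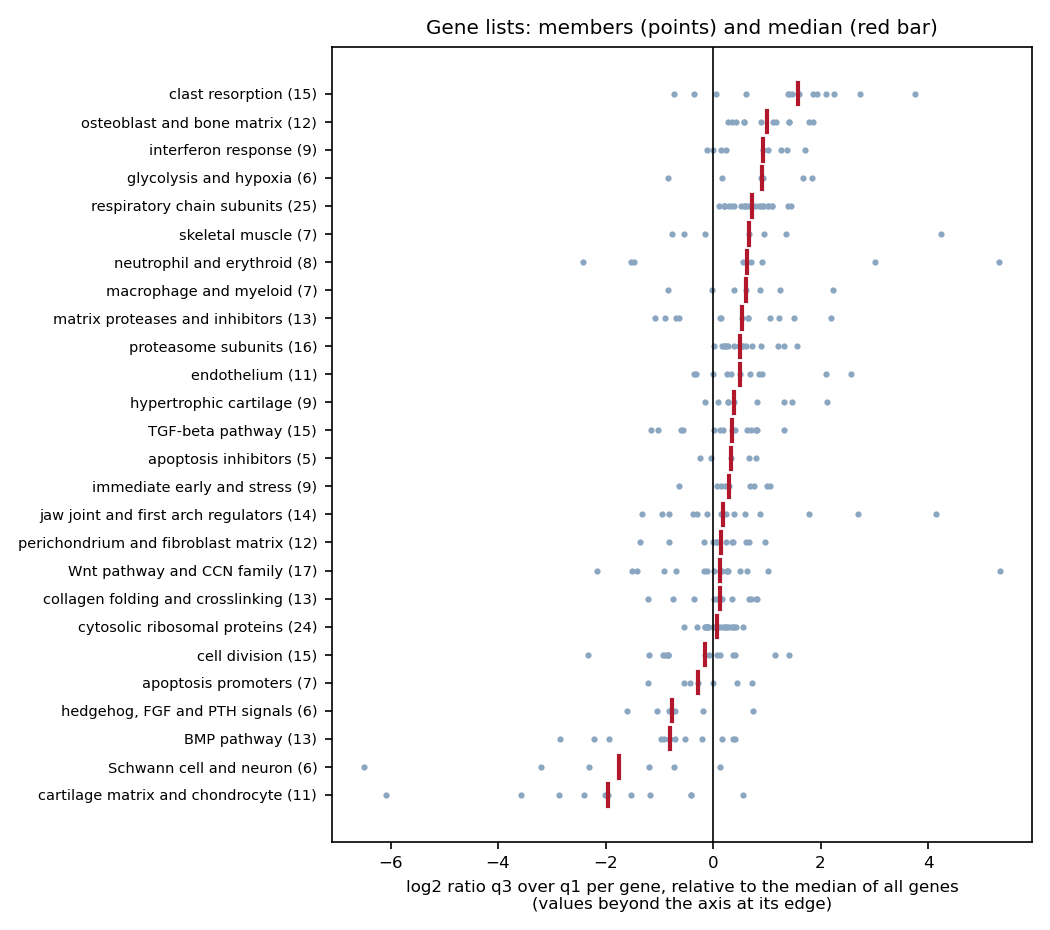
Distance of each measured gene from the median log2 ratio of all genes (points) and the median of each list (red bars), with the number of measured genes in brackets. Clast and bone genes have medians of 1.58 and 1.002 and cartilage genes one of -1.96.

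With centring on the median, the signalling lists had medians nearer to the shift than those of the clast, bone and cartilage matrix lists. Single members lay further away. In the TGF-beta pathway 11 of 15 measured genes lay above it, 1 of them by 1 or more and 2 others 1 or more below, with a median of 0.35 that went to -0.40 with centring on summed FPKM. TGFBI, a matrix protein induced by TGF-beta, was at 1.33 and the co-receptor TGFBR3 at -1.15. TGFB2, the ligand with the most FPKM, had 157 in q3, against 23.9 in q1, and TGFB1 had 63.2 in q3, against 10.1 in q1. TGFBR2, named by the study, has its only row outside the range and was not analysed here. In the BMP pathway 10 of 13 genes lay below the shift, 3 of them by 1 or more, with a median of -0.80 that went to -0.26 with centring by level and to -1.55 with centring on summed FPKM. Those 3 were the signal transducers SMAD9 and SMAD5 and the receptor BMPR1B, with 2.15, 3.55 and 1.55 in q3, against 3.86, 3.39 and 1.81 in q1. ID3, a target of the pathway, was the furthest above at 0.42, and the ligand BMP5 and the transducer SMAD1 lay at -0.97 and -0.81. Of 17 genes of the Wnt pathway and CCN family 10 lay above, with a median of 0.14 that went to -0.61 with centring on summed FPKM and to -0.13 with centring by level. WISP1, a CCN family member the study followed up, had 70.6 in q3 and 38.9 in q2, against 8.67 in q1, at 1.03. CTGF, another CCN member, and DKK3, a secreted Dickkopf protein, had 113 and 70.5 in q3, against 25.1 and 12.4 in q1. WNT11, a ligand of non-canonical signalling, was furthest above at 5.34 with 2.92 in q3, against 0.018 in q1, and WNT5A, another such ligand, furthest below at -2.16 with 1.39 in q3, against 1.55 in q1. Of the 6 hedgehog, FGF and PTH genes measured, 5 lay below with a median of -0.76, which went to -0.38 with centring by level and to -1.51 with centring on summed FPKM. Their levels were low too, with 1.22 for FGF18 and 2.67 for SPRY2 as the lowest and highest mean FPKM, and all rows at a mean FPKM of 1 to 2 had a median of -0.75 and those at 2 to 5 one of -0.09. HHIP, a target and inhibitor of hedgehog, was furthest at -1.60. FGF18, a growth factor of cartilage, was the 1 above, with 2.13 in q3, against 0.318 in q1. Of 14 regulators of the jaw joint and first arch 8 lay above, 3 of them by 1 or more, with a median of 0.19 that went to -0.56 with centring on summed FPKM. GSC, a homeobox factor needed for the malleus in mouse, had 4.98 in q3 and 2.58 in q2, against 0.0705 in q1. NKX3-2, the factor of the jaw joint also called Bapx1, had 4.16 in q3, against 2.02 in q1, at -0.96, and BARX1 had 17.8 in q3, against 11.2 in q1, at -1.33.

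Of the lists of energy metabolism and protein turnover, those of the respiratory chain and the proteasome lay wholly above the shift. All 25 subunits of the respiratory chain lay above it, 6 by 1 or more, with a median of 0.72, and they spanned only 0.12 (NDUFB10) to 1.45 (UQCRC2). COX7C, COX6C and COX7A2, subunits of cytochrome c oxidase, had 2282, 1083 and 867 in q3, against 453, 179 and 145 in q1. The median of the list went to -0.03 with centring on summed FPKM and to 0.37 with centring by level. All rows at a mean FPKM of 10 to 100 had a median of 0.36 relative to the shift. All 16 proteasome subunits lay above the shift, with a median of 0.51. It went to -0.24 with centring on summed FPKM and to 0.15 with centring by level. PSMD11, a subunit of the regulatory cap, was furthest above at 1.56. Of 24 cytosolic ribosomal proteins 14 lay above and none was 1 or more away, with a median of 0.08. It went to -0.67 with centring on summed FPKM and to -0.23 with centring by level. RPS28 and RPL13 had 4474 and 1894 in q3, against 1237 and 512 in q1. Of 6 genes of glycolysis and hypoxia 5 lay above, with a median of 0.91 that went to 0.16 with centring on summed FPKM. LDHA, lactate dehydrogenase, had 92.4 in q3, against 7.23 in q1, and PFKL, a phosphofructokinase, was furthest above at 1.83. Of 15 cell division genes 9 lay below with a median of -0.15, which went to -0.90 with centring on summed FPKM, -0.36 with centring by level and -0.04 with a pseudocount of 1. They included the proliferation marker MKI67 with 10.3 in q3, against 5.89 in q1. PLK1, a kinase of mitosis, was furthest above at 1.40 and AURKA, another, furthest below at -2.33. Of 7 genes that promote apoptosis 3 lay above, with a median of -0.28 that went to 0.06 with a pseudocount of 1. Of 5 that block it 3 lay above, with a median of 0.34 that went to -0.41 with centring on summed FPKM. BAX, which opens the outer mitochondrial membrane, had 25.99 in q3, against 7.91 in q1, and CASP8, the initiator caspase of death receptors, was furthest below at -1.21. Of 9 immediate early and stress genes 8 lay above, with a median of 0.29 that went to -0.46 with centring on summed FPKM, and of 9 interferon response genes 8 lay above, with a median of 0.93 that went to 0.18 with that centring, 0.58 with centring by level and 0.45 with a pseudocount of 1. KLF2, the most abundant of the early genes, had 124 in q3, against 28.2 in q1, and PSMB9, a subunit of the immunoproteasome, lay 1.72 above the shift.

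Markers of other cell types lay on both sides of the shift. Of 6 Schwann cell and neuron genes 5 lay below, 4 by 1 or more, with a median of -1.75 that went to -1.44 with centring by level. These 4 were NCAM1, STMN2, GAP43 and TUBB3, with 2.05 for TUBB3 and 3.25 for NCAM1 as the lowest and highest mean FPKM. The myelin genes PMP22 and MBP did not lie as far below, at 0.13 and -0.72. PMP22, the most abundant of the 6, had 55.0 in q3, against 12.5 in q1. TUBB3, a neuronal tubulin, had 0.0651 in q3 and 3.89 in q2, against 4.04 in q1, and GAP43, of growing axons, had 1.97 in q3, against 4.51 in q1. Of 11 endothelial genes 9 lay above, with a median of 0.50 that went to -0.25 with centring on summed FPKM, and PECAM1 and CDH5 had 21.1 and 14.3 in q3, against 4.17 and 3.00 in q1. Of 7 macrophage and myeloid genes 5 lay above, with a median of 0.60 that went to -0.15 with that centring. PTPRC, the leukocyte antigen CD45, was furthest above at 2.23, with 8.39 in q3, against 0.447 in q1. TYROBP, the most abundant, had 69.4 in q3, against 13.2 in q1, at 0.40, and C1QA was furthest below at -0.85. Of 8 neutrophil and erythroid genes 5 lay above and 3 lay 1 or more below, with a median of 0.63 that went to -0.13 with that centring. Those 3 were MMP8, S100A9 and S100A8, while MPO, the peroxidase of neutrophil granules, had 172 in q3, against 29.2 in q1. S100A8 had 125 in q3 and 49.9 in q2, against 87.1 in q1, so neutrophil genes lay on both sides of the shift. Of 7 skeletal muscle genes 4 lay above, with a median of 0.67 that went to -0.08 with centring on summed FPKM, to -0.18 with centring by level and to -0.28 with a pseudocount of 1. MYL4, a myosin light chain, was furthest above at 4.23 with 3.26 in q3, against 0.0433 in q1. ACTA1, skeletal actin, had 2.64 in q3, against 1.12 in q1. The part of such cells in the values of the other genes was not tested.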

How the data were processed

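Captured RNA was amplified before libraries were made. TopHat, Cufflinks and Cuffdiff are listed in the submitters' processing notes. Versions, the genome build and the scaling of libraries: not given in the sources used here. What the authors deposited were FPKM values as condition means per TSS group, with no value per animal, so depth is unknown and nothing could be tested. The conditions are coded and the labels do not pair the codes with stages. The table also holds the fold changes, p-values and q-values of the authors' own test, which were not used, and a second table that repeats the rows that test called was left out.

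Rows of q3 against q1 up to TSS5013 with status OK were used, since beyond this identifier only 67 rows are listed, chosen by that test. Of 14541 rows with another status, 94.7% had an FPKM below 1 in both conditions. Values of q2 came from the rows of q2 against q1. Log2 ratios were computed without a pseudocount and centred on their median at a mean FPKM of at least 1. Lists used FPKM summed per gene. The members, lists and naming rule were chosen with earlier results of these data known. The rule named the 15 rows furthest from the shift on each side at a mean FPKM of at least 10 and 10 at 100 or more, the study's genes, and in each list the 3 most abundant members and the furthest on each side. Not every gene that rule takes is printed, and some are not reported here. Genes named from sums per gene, further list members, and the lens, retina and epidermis lists, were chosen after the values were seen. The centring was tested on simulated data. Python 3.11.15, numpy 2.4.6, pandas 2.3.3 and matplotlib 3.10.9 were used. Alternatives covered pseudocounts, filters, sums per gene and other centres.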

Additional observations from a re-analysis of the deposited data

How the results depend on the processing

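The share of TSS groups higher in q3, 91.4%, went to 88.6% without a filter, 99.3% at a mean FPKM of at least 10 and 92.1% at a geometric mean of at least 1. The median log2 ratio of 2.10 went to 1.55 with a pseudocount of 1, 2.45 at a mean FPKM of at least 10 and 2.001 with sums per gene. The count of TSS groups 2 or more above the shift, 988, went to 198 with a pseudocount of 1, 81 at a mean FPKM of at least 10 with the median taken anew, 439 at a geometric mean of at least 1, 340 with sums per gene and 620 with centring on summed FPKM. The count 2 or more below, 1110, went to 557, 31, 732 and 1904 with the pseudocount of 1, the mean of at least 10, sums per gene and centring on summed FPKM. A row at nearly 0 in q1 loses its large ratio with a pseudocount by construction. Under centring on summed FPKM 16 of 26 list medians changed sign, under centring within 20 bins of level 5 did, and under a pseudocount of 1 did 2. The 2 most abundant TSS groups held 49.2% of the summed FPKM in q3, against 33.3% in q1. The log2 ratio of the sums was 2.76 with these 2 and 2.37 without them. List medians were not recomputed without them. With values below 0.01 removed, an alternative chosen after seeing the data, 813 rows lay 2 or more above the shift and 1085 below. No paired analysis was possible because the table has no value per animal, and for the same reason no animal could be left out. No result comes from a test.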
